A study of Mus musculus with 6 samples.

Results

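DNA methylation of mouse lung endothelium is described here at 8 genes of the endothelial cell junction: Cdh5, Pecam1, Esam, Icam2, F11r, Cldn5, Ocln and Tjp1. They were chosen by name, as 8 of the 47042 autosomal genes of the RefSeq gene table. All windows of 1000 bp overlapping a gene or the 20 kb on either side of it were used, which gave 695 of the 1683697 windows with a value in every sample. The cells were sorted by flow cytometry from lungs of wild-type (WT) mice, with no transgene or treatment named in the labels. One group of 3 samples is titled mAdu and the other group of 3 is titled aged. Ages of 8 and 18 months are stated for the series as a whole, not per title, and mAdu was taken as 8 months and aged as 18 months. The labels name neither strain, sex nor sorting markers, and leave unsaid if each sample is its own animal, so p-values reflect sample-to-sample spread that may be technical. Methylation was read by tagmentation-based whole-genome bisulfite sequencing, in which a transposase tags small amounts of DNA before bisulfite separates methylated from unmethylated cytosines. Each value below is the methylation level of a window or the unweighted mean of several windows, in percent, on build mm10.

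Endothelial junctions hold neighbouring cells of a vessel wall together and set how easily fluid, proteins and leukocytes pass between them. Adherens junctions are built on VE-cadherin, the product of Cdh5. Tight junctions are built on claudins and occludin, which the scaffold protein ZO-1, the product of Tjp1, ties to the actin cytoskeleton. Immunoglobulin-type adhesion molecules such as PECAM-1, ESAM, ICAM-2 and JAM-A (the product of F11r) line the same contacts and take part in leukocyte passage. Methylation at CpG sites is usually low at active promoters and enhancers and high over most of the remaining genome. Stretches of low methylation are therefore often used to mark the regulatory DNA of a cell type.

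Bisulfite sequencing reads cytosines, and the levels here are taken as those of CpG dinucleotides. The promoters of the members with an entry in RefSeq's promoter table are therefore shown first, as a view of how many such sites each holds. The table, on build GRCm38.p6, held entries for 4 of the 8 members, each running from 250 bases before to 50 bases after a transcription start, 5′ to 3′ on the gene's strand. CpG sites are in capitals and all other bases in lower case. Of the 2 entries for Ocln, which overlap, the one at the gene's edge is shown.
Cldn5 (chr16:18776597-18776896, plus strand): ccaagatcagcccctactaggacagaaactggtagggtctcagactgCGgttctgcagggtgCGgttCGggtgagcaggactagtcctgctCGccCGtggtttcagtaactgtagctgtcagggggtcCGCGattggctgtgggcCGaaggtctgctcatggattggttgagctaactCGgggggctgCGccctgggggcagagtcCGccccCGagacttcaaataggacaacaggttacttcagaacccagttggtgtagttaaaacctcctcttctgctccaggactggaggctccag
F11r (chr1:171437311-171437610, plus strand): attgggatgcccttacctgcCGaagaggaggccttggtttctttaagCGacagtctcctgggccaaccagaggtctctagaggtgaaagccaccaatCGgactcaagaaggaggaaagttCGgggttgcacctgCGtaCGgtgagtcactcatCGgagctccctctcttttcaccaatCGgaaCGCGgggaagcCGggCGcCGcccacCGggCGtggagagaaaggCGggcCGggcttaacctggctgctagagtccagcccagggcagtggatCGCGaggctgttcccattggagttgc
Ocln (chr13:100552669-100552968, minus strand): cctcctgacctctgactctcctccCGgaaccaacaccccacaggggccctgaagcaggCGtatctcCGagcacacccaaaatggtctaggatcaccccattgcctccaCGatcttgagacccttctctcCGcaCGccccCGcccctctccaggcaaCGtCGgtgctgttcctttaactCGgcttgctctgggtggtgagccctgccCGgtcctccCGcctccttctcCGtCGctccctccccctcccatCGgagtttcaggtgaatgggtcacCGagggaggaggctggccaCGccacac
Tjp1 (chr7:65371195-65371494, minus strand): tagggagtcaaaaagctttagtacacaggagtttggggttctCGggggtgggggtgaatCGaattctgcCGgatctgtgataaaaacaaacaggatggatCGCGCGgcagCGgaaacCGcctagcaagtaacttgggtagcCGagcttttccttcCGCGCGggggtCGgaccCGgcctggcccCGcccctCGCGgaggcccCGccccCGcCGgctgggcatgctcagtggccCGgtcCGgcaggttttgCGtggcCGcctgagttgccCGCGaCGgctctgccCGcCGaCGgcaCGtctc

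These sequences differ in their number of CpG sites. The Cldn5 promoter holds 12, that of Ocln 17, that of F11r 19 and that of Tjp1 31, against a median of 7 over the 31396 autosomal promoters of the table. At least as many sites as in Tjp1 are found in 10.9% of those promoters, and at least as many as in Cldn5 in 40.1%. The observed count of CpG sites in the Tjp1 promoter was 0.972 of that expected from its C and G content, whereas the median promoter had 0.389. The GC box GGGCGG, searched on both strands, occurs 2 times in the Tjp1 promoter and once in each of the other 3, and in 36% of all promoters. CCAAT on either strand occurs 4 times in F11r and 2 times in Cldn5 but not in the printed sequences of Ocln and Tjp1, against 37.3% of promoters with at least 1. The ETS core CCGGAA occurs once in the printed Ocln sequence and in none of the other 3, with 15.1% of all promoters holding it. TATAAA is in none of the 4, and in 13.6% of promoters. A match of letters is a description of the sequence and not evidence of binding.

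The windows that hold these 4 transcription starts were all close to 0. Cldn5 was at 0.462%, 3.94% and 2% in the mAdu samples and at 0.462%, 2.56% and 0.828% in the aged samples. F11r was at 1.46%, 1.3% and 0.925% in mAdu samples and at 2.07%, 1.1% and 1.04% in aged ones. Ocln was at 2.54%, 4.65% and 0.425% in mAdu samples and at 0.0942%, 0.2% and 1.13% in aged ones. At Tjp1 the values lay between 0.616% and 1.09% in all 6 samples. No sample had a start window above 5% at any of the 4 genes, and the groups overlapped at Cldn5, F11r and Ocln. For Tjp1 all 3 mAdu samples lay below all 3 aged samples, by 0.277 points between group means. Over all windows, 10% had groups that did not overlap.

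The whole series bears on these values in a few ways. The mean level of all windows was between 73.1% and 73.7% in the 6 samples. No read coverage or number of CpG sites accompanies the windows, so the depth behind each value is unknown and the spread of samples was the sole guide to precision. The values are not plain shares of reads, as 16326 of them lie above 0 yet under 1e-08%. Deviations of adjacent windows from their mean over samples correlated with r of 0.391 to 0.405 across windows. Levels close to 0, the length of low stretches and the small spread of low windows may thus depend on how the authors computed the windows, which was not tested. As a check of the sort, ends and bodies of 10 marker genes of each of 4 cell types were read, none of them a member. Median end levels were 22.6% for endothelial, 30.7% for mesenchymal, 47.2% for epithelial and 62.8% for haematopoietic markers. Ends under 30% were found for 7, 5, 3 and 1 of the 10 in the same order, and the endothelial Vwf was at 54.1%. Median body levels lay closer together, at 62.5%, 72.2%, 67.7% and 71.2%, the last over 8 bodies. A run of at least 5 adjacent windows under 30% touched 7 of the 10 endothelial markers, 1 epithelial (Nkx2-1), 1 mesenchymal (Pdgfra) and 0 haematopoietic markers. In a mixture of cells a level between 0 and 100% can come from a share of the cells or of the alleles in each cell, and these cannot be told apart.

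**Figure D1:**
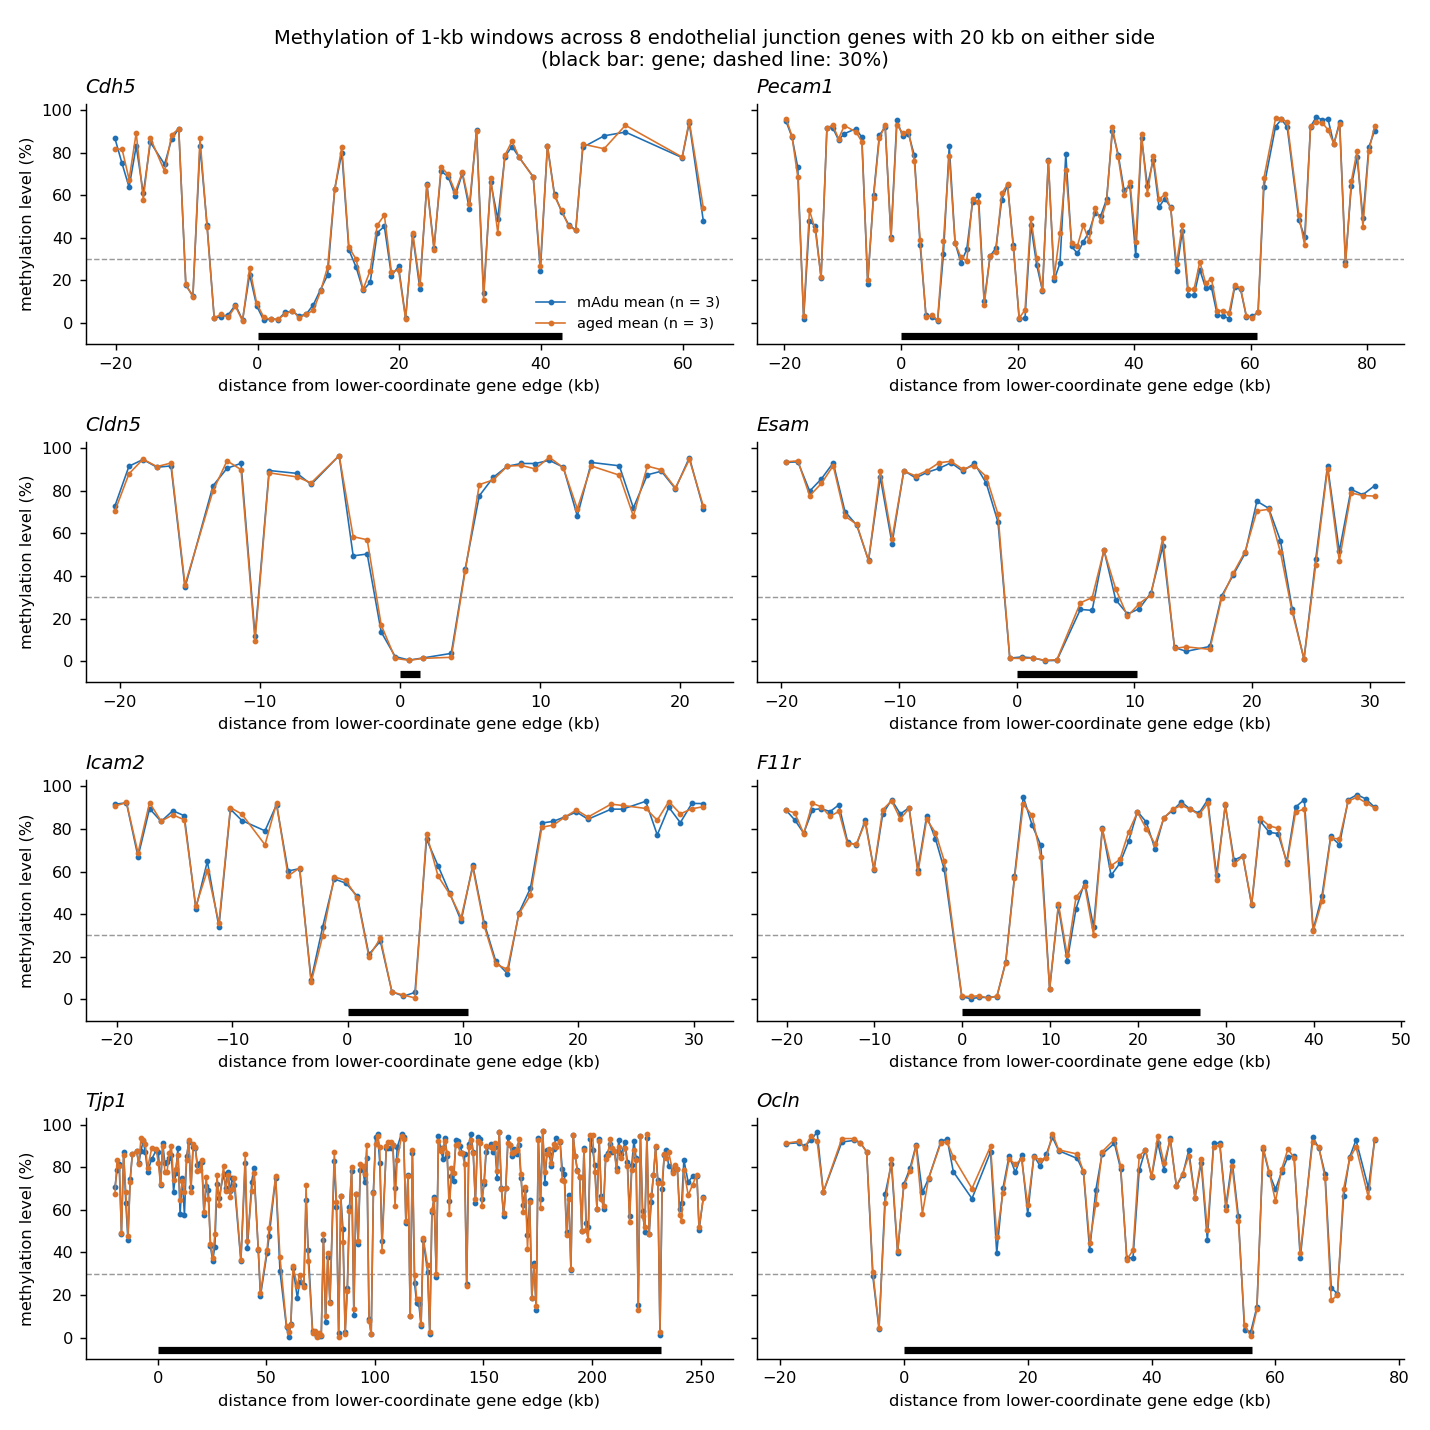
Methylation level (%, vertical axis) of every 1-kb window across each of the 8 genes and 20 kb on either side, against the distance of the window's centre from the lower-coordinate edge of the gene (kb), with the mean of the 3 mAdu samples in blue and of the 3 aged samples in orange. The black bar is the gene and the dashed line the 30% limit, and both lines follow the same course at every gene, with single windows up to 14.4 points apart, while long low troughs stand at one edge of Cdh5 and Pecam1.

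At the gene edges the members ranged from almost unmethylated to intermediate. The tables used give no strand for Cdh5, Pecam1, Esam and Icam2, so each end (1000 bp outside to 500 bp inside the edge) is named by its coordinate, and the less methylated of both, chosen on all 6 samples, was followed. Its median over the 8 members was 9.62%, where the ends of all 45661 genes measured had a median of 59.1% and those of 20248 protein-coding genes 34.4%. The members, chosen by name with earlier results of these data known, are not a random draw of genes, and no test was made of that difference.

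VE-cadherin links adjacent endothelial cells by binding its own kind. The lower-coordinate end of Cdh5 (chr8:104100613-104102113) was at 9.68%, 10.5% and 11.7% in mAdu samples and at 10.5%, 11.6% and 15.5% in aged ones. Aged sample 3 was the highest and the other values overlapped between groups. The opposite end of the gene was at 49.2% over all samples.

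The 4 immunoglobulin-type members spread over the whole range. F11r was at 0.952%, 0.689% and 0.657% in mAdu samples and at 2.1%, 1.33% and 0.683% in aged ones at its lower-coordinate end (chr1:171436561-171438061), which holds its annotated start. Esam, whose product is found at endothelial contacts and on platelets, was at 2.54%, 1.36% and 1.14% in mAdu samples and at 2.68%, 0.775% and 0.419% in aged ones at its lower-coordinate end (chr9:37527089-37528589). Both groups overlapped at both genes. At Pecam1, which encodes the endothelial marker CD31, the upper-coordinate end (chr11:106714781-106716281) was at 21.8%, 24.4% and 25.8% in mAdu samples and at 25.9%, 26.5% and 23.2% in aged ones. That mean joins windows of different kinds, since the last window wholly inside the gene was at 2.81%, the window across the edge at 5.05% and the first one wholly outside at 66%. At Icam2, which encodes a ligand of leukocyte integrins, neither end was low, with 53.4% at the lower and 45% at the upper coordinate. Of the 8 low windows of Icam2 and its flanks, 5 lay inside the gene. A low stretch of 2 kb at 15.1% (chr11:106390001-106392000) lay 1.86 kb past the upper edge.

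Among the tight junction genes, Cldn5, the main claudin of endothelium, had an end (chr16:18777762-18779262) at 1.68%, 0.462% and 0.832% in mAdu samples and at 1.22%, 0.449% and 0.822% in aged ones. Its other end, which holds the annotated start, was at 5.81% over all samples. Ocln, which encodes a tight junction protein of epithelium and endothelium, was at 7.65%, 9.7% and 8.06% in mAdu samples and at 6.4%, 9.26% and 4.93% in aged ones at its upper-coordinate end (chr13:100552218-100553718). The groups overlapped at both genes. Tjp1, the scaffold gene, was at 34.9%, 35.8% and 35.8% in mAdu samples and at 36.1%, 39.4% and 36.9% in aged ones at its upper-coordinate end (chr7:65527350-65528850). All 3 aged samples of Tjp1 lay above all 3 mAdu samples. This end averaged a window on the edge at 1.8% and the next one outside at 71.2%. The edge window was at 1.28%, 0.722% and 1.46% in mAdu samples and at 5.05%, 1.23% and 1.08% in aged ones. Its groups overlapped, and the difference of 1.3 points between their means rested on aged sample 1.

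In order of the end level the genes ran Cldn5, F11r, Esam, Ocln, Cdh5, Pecam1, Tjp1 and Icam2. The sample ranges of Cldn5, F11r and Esam overlapped, so these 3 cannot be ordered. The range of Ocln also overlapped that of Cdh5, although Cdh5 was the higher in 6 of 6 samples. Every later neighbour in the order was separated in all samples, with means at least 8.54 points apart.

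**Figure D2:**
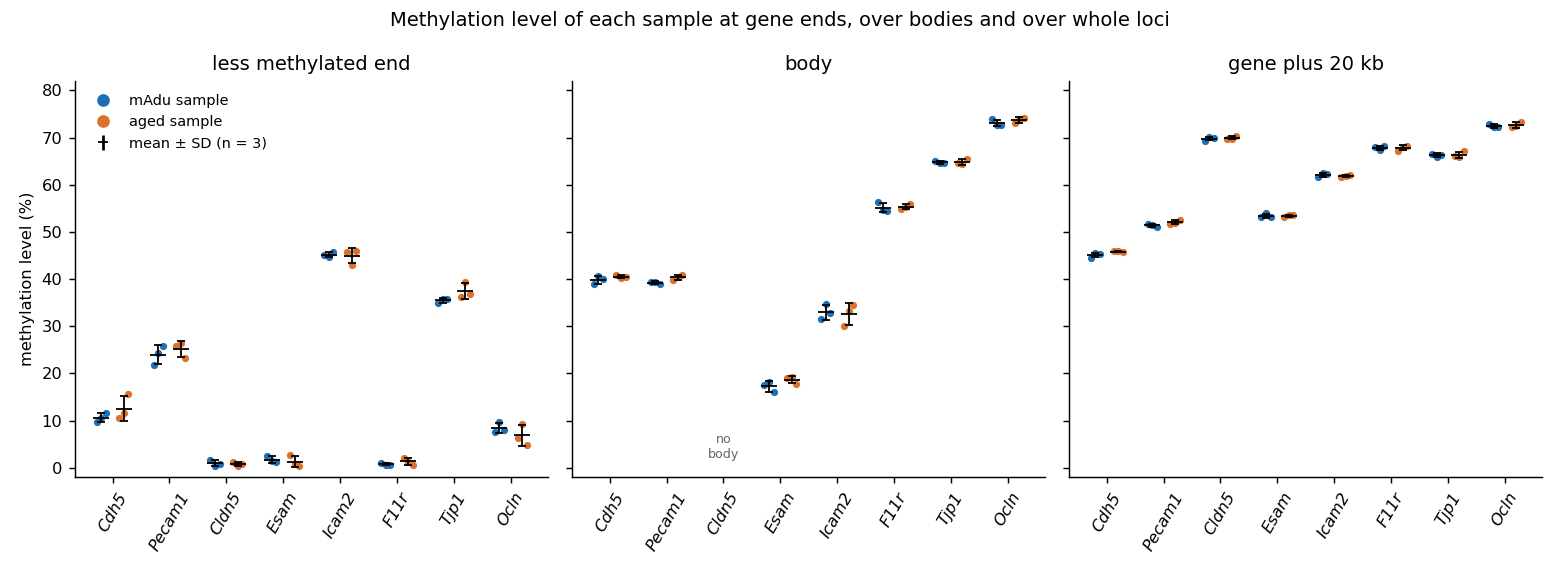
Methylation level (%, vertical axis) of each sample at the less methylated end, over the body and over the gene plus 20 kb of the 8 genes, with mAdu samples in blue, aged samples in orange and bars for the mean ± SD of 3 samples. Differences between genes, from 0.911% to 45% at the ends, are far wider than those between the 2 groups of a gene.

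Over the gene bodies, taken from 500 bp inside each edge, 5 of the 7 measured members lay well under the usual level. The median of the members was 40.2%, against 73.1% for 28922 bodies of all kinds and 73.3% for those of 17534 protein-coding genes. Cldn5, at 1416 bp, is too short for a body of 3 windows. Esam had the least methylated body, at 17.5%, 18.2% and 16% in mAdu samples and at 19%, 19.2% and 17.8% in aged ones, and 1.41% of protein-coding bodies were at or under that level. Icam2 followed at 32.8% over all samples, a level at or above that of 2.85% of protein-coding bodies. Pecam1 (39.8%) and Cdh5 (40.2%) could not be ordered, as Cdh5 was the higher in 3 of 6 samples, and 3.87% and 3.95% of protein-coding bodies were at or under their levels. F11r was at 55.3%, Tjp1 at 64.8% and Ocln at 73.4%, the last close to the middle of all protein-coding bodies (50.4% at or under it). Apart from Pecam1 and Cdh5, each gene was separated from the next in all 6 samples.

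The bodies were also measured outside the low stretches described next. With the windows of such stretches left out, the bodies of Ocln and Tjp1 were at 76.4% and 74.5%, near the protein-coding median of 78.4% by the same measure. F11r was at 72.3%. Cdh5 was then at 62.9%, Pecam1 at 56.4% and Icam2 at 54.5%, so the rest of these 3 bodies was also lower than that of most genes, with at most 4.15% of protein-coding genes at or under their levels. Esam had too few windows left to measure.

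Low-methylated stretches were defined as runs of adjacent windows whose mean over all 6 samples was under 30%, so their low level is part of the definition. The 8 genes with their flanks held 57 such stretches, of which 35 lay inside a gene, 14 outside and 8 across an edge. Of the 695 windows, 131 (18.9%) were low, against 4.18% of all windows, which include DNA far from any gene. By member the share ran from 8.54% at Ocln to 40% at Cdh5, and the share around other genes was not measured. A single window made up 31 of the 57 stretches (54.4%), against 66.3% of all 44370 stretches of the autosomes. At least 5 windows were joined in 6 of the 57, against 2.44% of all. Counted by gene, 6 of the 8 members touched a stretch of at least 5 windows, as did 4.92% of the 20665 protein-coding genes, whose median longest stretch was 2 windows.

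Cdh5 held the longest of them. It ran for 17 kb (chr8:104095001-104112000), from 6.61 kb outside the lower-coordinate edge to 10.4 kb inside the gene, and covered 24.2% of the gene. Its windows were between 1.15% and 24.4%, with flanking windows at 45.4% and 62.8%. The mean was 6.81%, 7.62% and 6.55% in mAdu and 6.81%, 7.4% and 7.42% in aged. The 6 samples thus lay within 1.06 points of each other. Of all stretches on the autosomes, 55 were as long or longer, and 0.339% of protein-coding genes touched one of that length or longer. The outer part also overlaps the predicted non-coding gene Gm29682, so the stretch cannot be assigned to Cdh5 alone. A further 2-kb stretch at 15.2% lay 8.61 kb outside the same edge, and 5 shorter ones of 1 to 3 kb lay inside the gene. In all, 46.5% of the windows in Cdh5 were low.

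Pecam1 held the next longest, 13 kb (chr11:106703001-106716000) that ended 0.719 kb past the upper-coordinate edge and reached 12.3 kb into the gene. Its windows ranged from 2.81% to 26.8%. The stretch was at 9.76%, 11.1% and 10.7% in mAdu samples and at 12.2%, 11.9% and 13% in aged ones. Every aged sample lay above every mAdu sample. As long or longer were 111 of all stretches. Pecam1 had 12 stretches in all, 7 of them wholly inside the gene, including 3 kb at 2.6% (chr11:106658001-106661000) and 2 kb at 3.09% (chr11:106674001-106676000). Low windows made up 38.7% of the gene.

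**Figure D3:**
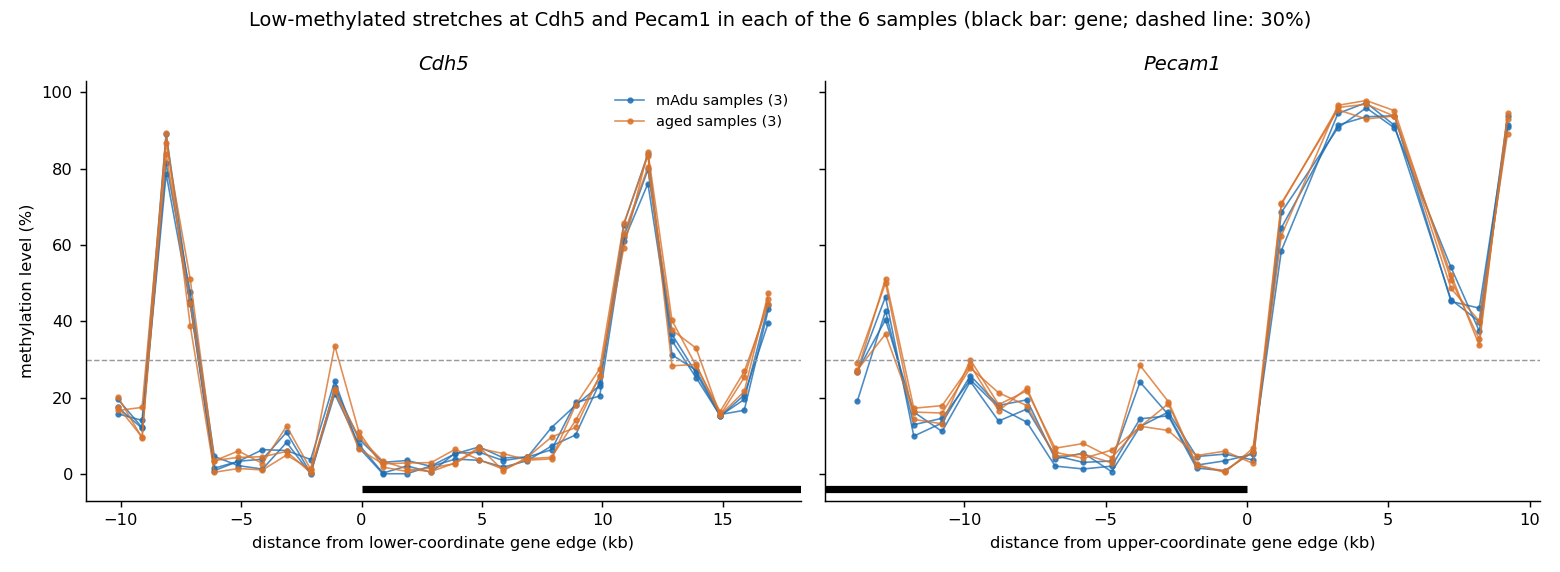
Methylation level (%, vertical axis) of 1-kb windows around the longest low stretch of Cdh5 (left) and Pecam1 (right) in each of the 6 samples, against the distance of the window's centre from the gene edge (kb), mAdu in blue and aged in orange. The samples follow one another closely along the 17 kb at Cdh5, whose means lie between 6.55% and 7.62%, while at Pecam1 the 13-kb means were 9.76% to 11.1% in mAdu and 11.9% to 13% in aged.

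The other adhesion genes had shorter stretches at or near an edge. F11r carried 6 kb (chr1:171437001-171443000) that began 0.56 kb outside the edge with the annotated start, at 3.69% ± 0.407 (SD, n = 3) in mAdu and 3.97% ± 0.909 in aged. The predicted gene Gm26641 overlaps it, and a window without a value precedes it. Esam carried 5 kb (chr9:37527001-37532000) at 1.07% ± 0.455 in mAdu and 1.01% ± 0.58 in aged, which covered 38.2% of the gene. A window without a value follows it, and 80% of the windows in Esam were low. In Icam2 the 5-kb stretch (chr11:106379001-106384000) lay wholly inside the gene, 1.34 kb from the lower edge, at 11.3% ± 1.4 in mAdu and 11% ± 2.04 in aged. Its lowest window was at 1.72% and its highest at 28%.

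At the tight junction genes the longest low stretch held the annotated starts. Cldn5 lay whole inside a 4-kb stretch (chr16:18775001-18779000) at 4.44% ± 1.33 in mAdu and 4.97% ± 0.658 in aged. A low window of its neighbour Cdc45, at 2.71%, followed across a window without a value. The Ocln stretch was 3 kb (chr13:100551001-100554000), at 6.9% ± 0.953 in mAdu and 6.58% ± 1.93 in aged, and held both RefSeq starts of the gene. Low windows were 4.08% of those inside Ocln. Tjp1, the longest member at 232 kb, had 20 stretches, of which 19 lay inside the gene and 1 across its upper edge. Its longest, 5 kb (chr7:65367001-65372000), began 70.8 kb from the lower-coordinate edge, held the RefSeq start shown above, and was at 1.4% ± 1.12 in mAdu and at 1.71% ± 0.195 in aged samples. The window at the upper edge was at 1.8% over all samples, so Tjp1 had near-unmethylated DNA at both places. Windows without a value bound the 5-kb stretch on its lower-coordinate side and border some other Tjp1 stretches, so their number and lengths depend on these gaps.

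Outside the genes the flanks were mostly at the usual level. The mean of the 20 kb on either side was 53.3% for Cdh5, 59.9% for Esam and between 69.4% and 76.6% for the other 6, with a protein-coding median of 70.6%. Of protein-coding genes, 2.83% had flanks at or under the level of Cdh5 and 8.48% at or under that of Esam. The Esam flank holds Vsig2 and Nrgn, which overlap low stretches of their own at 5.93%, 6.21% and 12.4%, and these values belong to those genes as much as to Esam. Over gene and flanks together, Cdh5 was lowest at 45.5%, then Pecam1 at 51.7% and Esam at 53.4%, and every neighbour in the order of the 8 was separated in all 6 samples.

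The comparison that the design implies is between the ages, and at the junction genes it gave no call. Of the less methylated ends, 0 of 8 passed limma at an adjusted p of 0.05, with 0 at an unadjusted p under 0.05 and a smallest adjusted p of 0.966. Over all gene ends, 0.0153% were called. The largest differences between group means were 2.01 points at Tjp1 (95% interval -0.919 to 4.93), 1.95 at Cdh5 (-1.32 to 5.21) and -1.61 at Ocln (-4.45 to 1.23). Single samples moved these values: without aged sample 3 the difference was 0.456 points at Cdh5 and -0.643 at Ocln, without aged sample 2 it was 1.04 at Tjp1 and -2.81 at Ocln, and without aged sample 1 it was 2.97 at Cdh5. The groups did not overlap at 1 of the 8 ends, that of Tjp1, and at 10.1% of all ends. An exact permutation test of 3 samples against 3 cannot give a two-sided p under 0.1, so none was used to call a single value.

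Bodies and whole loci differed by less. In limma, 0 of 7 bodies passed (0 at an unadjusted p under 0.05, smallest adjusted p 0.976), with 0.00346% called among all bodies. Pecam1 was at 39.5%, 39.5% and 38.9% in mAdu samples and at 39.7%, 40.5% and 40.8% in aged ones, 1.08 points apart (95% interval -0.46 to 2.61). It was the one body without overlap between groups, against 10.1% of all bodies. The Esam body differed by 1.41 points (-0.431 to 3.25) with overlap, and by 0.783 without mAdu sample 3. Over the gene plus 20 kb, 0 of 8 members passed (0 at an unadjusted p under 0.05, smallest adjusted p 0.999), and 0% of all loci did. Cdh5 was at 44.6%, 45.5% and 45.3% in mAdu samples and at 45.9%, 45.9% and 45.7% in aged ones. Pecam1 was at 51.6%, 51.4% and 51.1% in mAdu samples and at 51.7%, 51.9% and 52.5% in aged ones. At these 2 loci the groups did not overlap, as at 9.72% of all loci, and the differences were 0.7 and 0.671 points. They were 0.418 at Cdh5 without mAdu sample 1 and 0.433 at Pecam1 without aged sample 3. The 95% intervals of all 8 loci lay between -1.19 and 1.77 points, so an average shift of more than 2 points over any of the loci is outside the intervals. For 20 of the 52 named differences at ends, bodies, loci, stretches and windows the direction turned under at least 1 alternative setting.

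**Figure D4:**
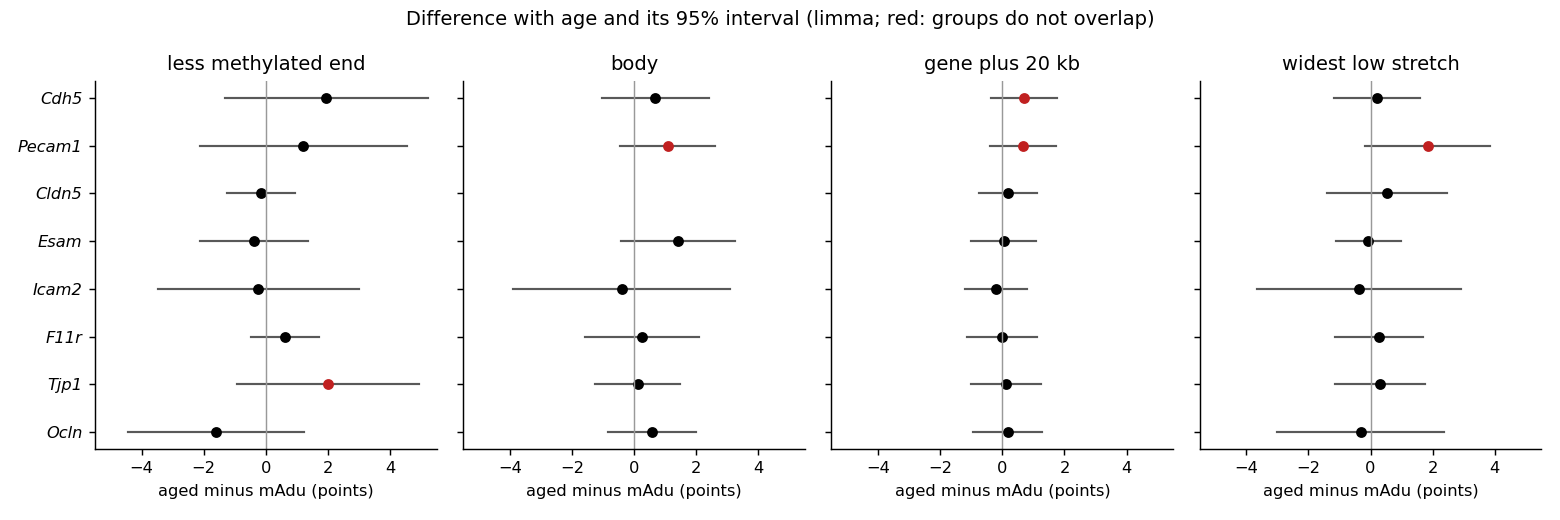
Difference between groups (aged minus mAdu, percentage points, horizontal axis) for each gene at the less methylated end, body, gene plus 20 kb and widest low stretch, with points for the difference of means and bars for limma's 95% interval. Every interval includes 0, and red points mark the values whose groups do not overlap (Tjp1 at the end, Pecam1 over the body, Cdh5 and Pecam1 over the locus, Pecam1 over its widest stretch).

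Of the 57 low stretches, 0 passed limma (smallest adjusted p 0.935), while 0.00225% of all stretches were called. An unadjusted p under 0.05 was found for 2 of the 57, and for 5% of all stretches. The first of these 2 was the 2-kb stretch inside Pecam1 (chr11:106674001-106676000), at 2.19%, 1.82% and 2.02% in mAdu samples and at 3.73%, 3.92% and 4.88% in aged ones, 2.17 points apart (adjusted p = 0.935 in limma). The second was a single window inside Tjp1 (chr7:65373001-65374000), at 7.86%, 6.67% and 6.8% in mAdu samples and at 10.5%, 9.1% and 10.4% in aged ones (adjusted p = 0.935 in limma). All 3 aged samples were the higher at both, from levels that stayed under 11% in every sample. The 13-kb stretch of Pecam1 differed by 1.83 points (95% interval -0.178 to 3.85), and the 17-kb stretch of Cdh5 by 0.219 points (-1.16 to 1.6). Groups did not overlap at 7 of the 57 stretches, against 10.8% of all. Beside the 3 named these were 3 kb inside Cdh5 (20.2% in mAdu and 23.5% in aged), another window of Pecam1 (28.3% and 30.9%, 2.52 points apart and 1.22 without aged sample 2), a window 9.85 kb outside Cldn5 (11.6% and 9.48%) and 2 kb outside Ocln (21.9% and 18.7%). Aged had the higher mean at 34 stretches and mAdu at 23, and this split was not measured over all stretches.

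Single windows gave 0 calls among 695 in limma (smallest adjusted p 0.978), with 0.0211% of all windows called. An unadjusted p under 0.05 was found for 25 windows, or 3.6%, against 4.67% of all windows. Groups did not overlap at 79 windows (11.4%, 50 higher and 29 lower in aged), against 10% of all windows. Among the 695, aged had the higher mean at 365 and the lower at 330. These splits were not measured over all windows, and adjacent windows deviate together. The widest such gap was inside Pecam1 (chr11:106681001-106682000), at 23.9%, 34.6% and 25.6% in mAdu samples and at 38.7%, 48.9% and 39.6% in aged ones. It amounted to 14.4 points (95% interval 4.94 to 23.8, adjusted p = 0.978 in limma). Inside Tjp1 a window (chr7:65308001-65309000) was at 59.9%, 58.2% and 54% in mAdu samples and at 68.9%, 67.9% and 68.1% in aged ones, 10.9 points apart. Beside Cldn5 a window (chr16:18773001-18774000) 2.85 kb outside the lower edge was at 46.8%, 53.6% and 48% in mAdu samples and at 61.2%, 54.2% and 59.9% in aged ones. In the other direction, a window past Tjp1 (chr7:65537001-65538000) differed by -8.39 points (-4.15 without aged sample 2) and one inside Cdh5 (chr8:104135001-104136000) by -6.5 points. These windows were named for the size of their gap, so the sizes are a description. The intervals of single windows are wide, and 16.1% of the 695 lay wholly within 5 points of 0. For most single windows a change of 5 points can thus not be excluded.

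The lowest window of each gene was near 0 at both ages. At Cdh5 it lay 1.61 kb outside the lower edge (chr8:104099001-104100000), at 1.36% ± 2.12 in mAdu and 0.933% ± 0.511 in aged (SD, n = 3 in each group). At Pecam1 it lay inside the gene (chr11:106660001-106661000), at 0.947% ± 1.52 and 1.36% ± 0.603. Those of the other 6 genes had means over all samples from 0.274% at Esam to 1.72% at Icam2. At 7 of the 8 genes low windows varied less between samples of a group than the other windows did. The median SD within groups was 1.89 points for low and 3.17 for other windows at Cdh5, and 0.76 and 2.57 points at F11r. Icam2 was the exception, with 2.76 points for low and 2.41 for other windows.

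Long stretches were also found at other junction genes, and the numbers below were not tested against the members'. The first list held 31 other endothelial or broadly expressed junction genes, of which 30 are autosomal, with median levels of 26.6% at ends and 72.4% over bodies. Of these 30, 6 touched a stretch of at least 5 windows, namely Jup (plakoglobin) and Ptprb (the phosphatase VE-PTP) with 11 each, Ctnnd1 (p120-catenin) with 7, Amotl2 with 6, and Ctnnb1 (beta-catenin) and Rasip1 with 5 each. The lowest of the list by the mean of end and body were the connexin gene Gja4 (21.3% at the end and 18.9% over the body), Mcam (1.01% and 43.7%) and Amotl2 (26.8% and 32.6%). The highest were Ctnnd1 (91.9% and 57.8%), Cgnl1 (69.9% and 77.5%) and Cdh13 (66.1% and 76.2%). Jam2, a relative of F11r, was at 1.79% and 64.1%, and Jam3 at 47.3% and 78.6%. The connexin gene Gja5 was at 50.6% and 71.6%, and Ptprb at 26.3% and 57.5%.

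Epithelial junction genes formed the second list, of 18 genes, with medians of 32.4% at ends and 70.4% over 15 bodies. None of the 18 touched a stretch of at least 5 windows, where 4.92% of all protein-coding genes did, and their longest stretch was 3. A count of 0 among 18 is thus near the usual share. Cldn7 had the least methylated body (17.9% at the end and 26% over the body), and Cgn (5.87% and 67%) and Pkp1 (14.3% and 68.3%) followed by the mean of both. Cldn18, a claudin of alveolar epithelium, was highest at 78.9% and 76.4%, then Pkp3 (62.3% and 66.1%) and Cxadr (41.4% and 76.7%). Cdh1, the epithelial cadherin, was at 24.7% and 72%, against 11.6% and 40.2% for Cdh5. Epcam was at 42.2% and 70.4%, and the end of Cldn3 at 12.9%. With age, 0 genes of either list passed limma in either direction at ends or bodies. An unadjusted p under 0.05 was found at the ends of Gjc1 and Ptprm and the bodies of Gjc1 and Nectin3 in the first list, and at the end of Cldn7 (3.29 points higher in aged) in the second. Over all genes 4.97% of ends and 5.08% of bodies had such a p.

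**Figure D5:**
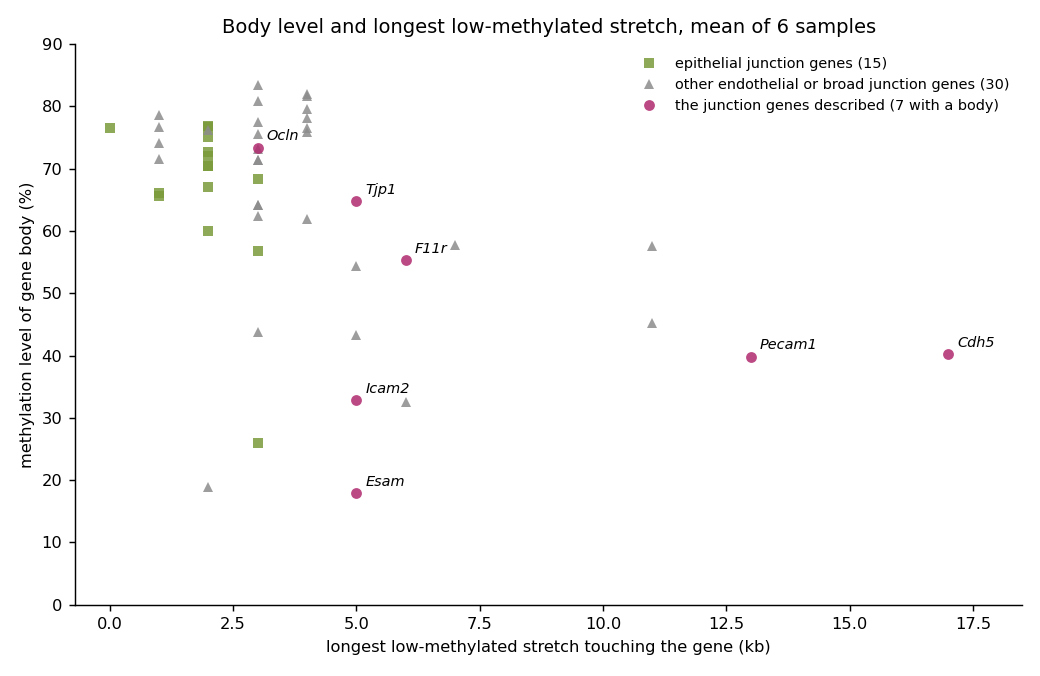
Mean methylation level of the gene body over 6 samples (%, vertical axis) against the number of windows of 1 kb in the longest low stretch touching the gene (horizontal axis, kb), for 7 of the 8 junction genes with their names, 30 other endothelial or broad junction genes and 15 epithelial ones. Cdh5 and Pecam1 stand at 17 and 13 kb with bodies near 40%, while the epithelial genes reach 3 kb. The median longest stretch of all protein-coding genes is 2 windows.

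Genes with the most similar levels were sought among 17385 autosomal genes by the distance over end, body and flank levels, each a mean of 6 samples. Nearest to Cdh5 were Slc50a1 (2.88 points away) and Nphs1os, and nearest to Pecam1 were Ccdc87 (1.46 points), Tuba1a and Hnrnpu. Esam was nearest to Cebpa (3.31 points), Cox20 and Hes7, and Icam2 to Nkpd1 (2.62 points), Tmem254a and Prph. F11r was nearest to Qk (0.974 points), Fzd5 and Nabp2, Tjp1 to Ccn3 (0.286 points) and Acot5, and Ocln to Megf10 (0.977 points), Mfap3l and Stxbp6. None of the genes named in this search is on either junction list, and likeness in 3 averages says nothing of shared stretches.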

How the data were processed

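The deposited table gives the authors' mean methylation of each sample as a fraction from 0 to 1 in 1684140 windows of 1000 bp on 19 autosomes. Per the labels' protocols, 30 ng of DNA was used per sample. BWA 0.7.8 and build mm10 come from the submitters' processing notes, while the sources used here give no CpG caller, coverage filter or smoothing. Fractions were multiplied by 100, and the 1683697 windows measured in every sample were kept. Gene spans and promoters came from RefSeq (GRCm38.p6). Ends, bodies, loci, low stretches and windows were each fitted over all autosomal features with limma 3.58.1 in R 4.3.3 (group as the only term, variance trend, Benjamini-Hochberg adjustment at 0.05), after tests on simulated data. Alternatives changed the variance trend, the scale (logit), extreme windows, region limits, the samples included and a replicate block. Summaries used Python 3.11.15. The members, gene lists and tests were chosen with earlier results of these data known. Named windows are, for each member, the lowest and up to 2 with the largest difference among those whose groups do not overlap. From the lists, the 3 lowest and 3 highest genes by the mean of end and body were named, with a fixed set of relatives, and the 3 nearest genes to each member; some of these are not reported here. Genes named for a long stretch or an unadjusted p were added after their values were seen.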

Additional observations from a re-analysis of the deposited data

How the results depend on the processing

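No member was called under any alternative: 0 at ends, bodies, loci, stretches and windows alike, with a smallest adjusted p of 0.816. The 52 named differences were recomputed 629 times, and 585 values kept their direction. Dropping the variance trend, adding the replicate block or fitting protein-coding genes alone leaves a difference unchanged, so the 585 is not a measure of stability. None of the 15 windows reversed, and none could, as they were chosen for groups that do not overlap. The reversed values were as follows: with wider ends 0.71 points for Esam, with the edge window alone 1.29 for Icam2, at the annotated start 0.774 for Cldn5, and outside low stretches -0.0191 for the Tjp1 body. Flanks of 10 kb gave 0.236 for F11r, and flanks of 50 kb gave 0.0796 for Icam2, 0.116 for F11r and -0.022 for Tjp1. A limit of 20% gave -0.225 for the widest Cdh5 stretch, and one of 50% -1.04 for the Pecam1 stretch at 106664001. The cause was not tested. Leaving out 1 sample gave these ranges at ends: Cldn5 -0.428 to 0.182, Icam2 -0.731 to 0.667, Esam -1.08 to 0.048, and, without reversal, Pecam1 0.0803 to 2.18, Cdh5 0.456 to 2.97, Ocln -2.81 to -0.643, Tjp1 1.04 to 2.69 and F11r 0.238 to 0.946. For bodies they were -1.36 to 0.915 for Icam2, -0.106 to 0.813 for F11r and -0.228 to 0.346 for Tjp1. For loci they were -0.285 to 0.283 for F11r, -0.0986 to 0.313 for Esam, -0.0291 to 0.333 for Cldn5, -0.226 to 0.346 for Tjp1 and -0.157 to 0.427 for Ocln. For the widest stretches they were -1.05 to 0.799 for Icam2, -0.165 to 0.744 for F11r, -0.375 to 0.201 for Esam, -1.37 to 0.529 for Ocln, -0.0994 to 0.948 for Tjp1, -0.00142 to 0.531 for Cdh5 and -0.125 to 1.2 for Cldn5. Over all features, calls also moved: 7 ends became 5 to 20 without 1 sample and 0 to 11 otherwise, 1 body 1 to 9 and 0 to 3, 0 loci 0 to 7 and 0 to 3, 1 stretch 0 to 4 and 0 to 50, and 355 windows 680 to 998 and 59 to 287. Fits restricted to protein-coding genes were added after seeing the data and called 0 members.

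Deviations of gene bodies from their group means correlated with r of -0.117, -0.165 and -0.059 across same-numbered samples. Across samples of unlike number r ran from -0.014 to 0.126, so every sample correlated lowest with its own number. Because the deviations of a group's 3 samples cancel out, the r values depend on each other. They cannot settle whether the replicate numbers of the titles mark a pairing or a batch. With the replicate block as a further term, 0 members were called, and over all features 2 ends, 1 body, 0 loci, 0 stretches and 185 windows were.

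Depth is unknown, windows are weighted equally whatever their number of CpG sites, and an end holds 2 or 3 windows, so a narrow promoter is averaged with its surroundings.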

Other observations

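The 131 low windows of the 8 genes averaged 10.9%, 11.1% and 10.7% in the mAdu samples and 11.6%, 11.6% and 11.5% in the aged samples. The same average over all 70443 low windows of the autosomes was 13.2%, 13.2% and 13% in mAdu and 13%, 13.2% and 13.2% in aged. Over all 695 windows of the 8 genes the averages were 62%, 61.8% and 61.9% in mAdu and 61.8%, 61.9% and 62.6% in aged. The groups did not overlap over the low windows of the 8 genes and overlapped over both other sets. How often other sets of genes stand apart in this way was not measured. The pattern was seen after the values were known, was not tested, and joins windows that are not independent of each other.

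Other genes lie within the low DNA counted here. Prr29 overlaps a low window at 8.53% located 2.66 kb outside Icam2, and Gtf2h2 overlaps 2 kb at 17% located 3.5 kb outside Ocln. In aged sample 3 a single low window inside F11r (chr1:171449001-171450000) was at 27.9%, while the other 5 samples were between 17% and 18.6%.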
